A study of Homo sapiens with 32 samples.

Results

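Of the 92108 regions marked by H3K27ac (acetylation of lysine 27 on histone H3) in SK-N-BE(2)C neuroblastoma cells, 19782 had their nearer edge more than 100000 bases from every protein-coding start site and are described here as desert regions. The start sites were those of protein-coding transcripts in GENCODE 44 lifted to GRCh37 (hg19), on chromosomes 1 to 22 and X, where 72309 other regions lay closer to a start site. SK-N-BE(2)C is an established MYCN-amplified neuroblastoma line of the adrenergic type, so each group is 1 cell line. Over 5 days the cultures received DMSO (the vehicle), 1 µM palbociclib (PB, an inhibitor of the cell-cycle kinases CDK4 and CDK6), retinoic acid (RA) or PB+RA. Each of the 4 groups had 4 H3K27ac ChIP libraries and 4 input libraries, which the study's methods describe as biological replicates from different passages. The study's methods tie a region to its nearest gene only up to 100000 bases, the distance used here. Every treatment was compared with the same 4 DMSO libraries, so the 3 comparisons share their controls.

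Enhancers are stretches of regulatory DNA that raise transcription of a gene that may lie far away along the chromosome, and H3K27ac marks those that are active. Genes that steer development are often flanked by long stretches with no other coding gene, in which many such enhancers sit. RA acts through nuclear receptors that bind paired copies of a short letter pattern in DNA, and these receptors, together with the enzymes that degrade RA, belong to the genes that RA itself switches on.

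The name desert holds for coding start sites only. Of the 19782 desert regions, 6204 (31.4%) lay inside the body of a protein-coding gene, against 76.2% of the other regions. Only 801 (4.05%) overlapped an exon of such a gene, and 5403 (27.3%) lay in a coding gene without touching an exon. In addition, 5961 (30.1%) overlapped a long non-coding RNA gene, 8173 (41.3%) overlapped neither kind of gene, and 2703 (13.7%) were more than 100000 bases from the start of any annotated gene. The genes that held the most desert regions were RBMS3, an RNA-binding protein gene with 88, HS6ST3, a heparan sulfate sulfotransferase gene with 71, ENSG00000283563, a coding gene model that overlaps RBMS3, with 70, and SLIT3, an axon guidance ligand gene with 60. Desert regions made up 41.6% of all regions on chromosome 13 and 1.74% of those on chromosome 19.

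Desert regions had a median width of 1578 bases, against 1778 for the other regions, and a median GC content of 41.4%, against 48.7%. Their median distance to the nearest coding start site was 223.5 kb, and the farthest lay 2713 kb away between PCDH7, a protocadherin gene, and ARAP2. At the border of the rule, the regions just inside were at 100001 bases (between NDFIP1 and SPRY4) and 100013 bases (between C12orf75 and NUAK1), and the 2 just outside were both at 99997 bases (between ITGB8 and ABCB5, and inside TCF12). Their concentrations in DMSO, the mean log2 normalised read concentration that the study's tables give for a group, were 7.41, 2.04, 5.71 and 5.92 in that order. A concentration is a mean over 4 libraries with no spread attached, so differences between group concentrations are given without a test. The number of peaks per library ran from 64493 to 104355, and 12193 to 19527 of them overlapped desert regions. No read totals were in the files, so the sequencing depth behind each library is unknown.

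The sequence most directly tied to one of the treatments is the RA response element of the type DR5, a pair of short sites (here GGTCA or GTTCA) with 6 bases between them. It was found on either strand in the central 300 bases of 58 desert regions (0.293%), against 0.250% of all regions. The windows below hold 7 of these elements, read from GRCh37, each with 60 flanking bases and the element in capitals. The second was added for its place in the CYP26B1 gap. The others were chosen for a large concentration difference between RA and DMSO, so their differences with RA are a description.
CYP26B1 to EXOC6B, chr2:72775325-72775460, reverse strand: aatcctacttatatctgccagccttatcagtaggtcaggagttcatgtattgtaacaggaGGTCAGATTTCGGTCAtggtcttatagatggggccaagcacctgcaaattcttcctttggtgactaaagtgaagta
CYP26B1 to EXOC6B, chr2:72499573-72499708, reverse strand: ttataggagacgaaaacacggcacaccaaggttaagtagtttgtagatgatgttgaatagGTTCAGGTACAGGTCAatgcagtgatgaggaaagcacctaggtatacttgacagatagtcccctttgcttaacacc
TENT5A to IBTK, chr6:82564112-82564247, forward strand: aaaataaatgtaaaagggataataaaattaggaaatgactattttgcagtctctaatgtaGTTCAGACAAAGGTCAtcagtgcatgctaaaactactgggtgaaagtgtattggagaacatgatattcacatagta
SOX11 to RSAD2, chr2:6512802-6512937, forward strand: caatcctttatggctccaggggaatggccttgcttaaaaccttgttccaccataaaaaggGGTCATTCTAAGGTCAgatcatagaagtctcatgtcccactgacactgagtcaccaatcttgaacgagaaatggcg
CBLB to CCDC54, chr3:106000232-106000367, reverse strand: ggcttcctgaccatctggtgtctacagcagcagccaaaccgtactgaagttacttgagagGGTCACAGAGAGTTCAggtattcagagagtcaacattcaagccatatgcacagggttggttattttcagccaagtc
DAB2 to PTGER4, chr5:39668755-39668890, reverse strand: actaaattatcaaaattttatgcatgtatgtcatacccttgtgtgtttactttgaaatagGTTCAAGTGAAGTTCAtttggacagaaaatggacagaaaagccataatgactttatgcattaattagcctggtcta
DPT to ATP1B1, chr1:168833209-168833344, forward strand: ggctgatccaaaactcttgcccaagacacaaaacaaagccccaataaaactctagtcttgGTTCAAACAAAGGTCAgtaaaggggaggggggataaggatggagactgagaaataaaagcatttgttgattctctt

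The region that holds the first of these, chr2:72773096-72777503 in an intron of EXOC6B, an exocyst subunit gene, had a concentration of 0.72 in DMSO, 3.10 with PB, 5.08 with RA and 7.01 with both agents. The SOX11 to RSAD2 region had 4.31, 5.30, 8.004 and 8.40 in the same order, and carried a peak in all 4 RA and all 4 PB+RA libraries and in no DMSO or PB library. SOX11 encodes a transcription factor of the adrenergic neuroblastoma circuit. The CBLB to CCDC54 region was higher with RA alone (2.204, 3.27, 5.66 and 4.85), with a peak in all 4 RA libraries and in 1 PB+RA library. Over all 58 regions with the element, the median difference from DMSO was 0.23 log2 with PB, 0.70 with RA and 0.83 with both agents, beside 0.25, 0.16 and 0.35 over all desert regions. Of the 58, 23 were more than 1 log2 above DMSO with RA and 2 more than 1 below, beside 22.7% and 10.4% of all desert regions. A match of these letters is a description, not a measured binding site.

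The desert region with the largest concentration difference with RA and with PB+RA lay at chr4:5525652-5532502, between STK32B, a kinase gene, and EVC2, a gene needed for Hedgehog signalling in cilia, and overlapped the non-coding gene LINC01587. Its central 300 bases are shown because this region leads both comparisons, with the E-box letters CATCTG or CAGCTG (sites of basic helix-loop-helix factors, here CAGATG when read on the reverse strand) and the GATA letters AGATAA (here TTATCT) in capitals.
STK32B to EVC2, chr4:5528928-5529227, forward strand: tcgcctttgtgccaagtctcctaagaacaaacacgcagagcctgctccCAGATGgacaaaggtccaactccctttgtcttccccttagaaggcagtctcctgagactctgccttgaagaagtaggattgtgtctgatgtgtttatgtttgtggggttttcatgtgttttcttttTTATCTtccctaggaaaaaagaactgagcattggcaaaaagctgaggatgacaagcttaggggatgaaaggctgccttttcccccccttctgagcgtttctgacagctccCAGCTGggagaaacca

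No DMSO library had a peak on this region. The fold enrichment over input of its highest peak was 3.29 and 2.86 in 2 PB libraries, with no peak in the other two, 14.5, 13.8, 8.94 and 11.4 in the RA libraries, and 24.3, 16.7, 19.2 and 14.5 in the PB+RA libraries. Its concentration was 3.86 in DMSO, 5.85 with PB, 9.80 with RA and 10.72 with both agents. The RA and PB+RA libraries all lay far above the PB libraries, and the values stand without a test because the region was chosen for its difference.

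The mean share of desert regions with a peak was higher in each treatment group than in DMSO, without passing the test after adjustment. A peak covered at least 1 base of 48.5%, 51.7%, 44% and 50.03% of desert regions in the DMSO libraries, 56.6%, 60.6%, 54.3% and 45.8% in the PB libraries, 55.4%, 58.3%, 52.6% and 54.1% in the RA libraries, and 65.6%, 58.6%, 67.1% and 63.4% in the PB+RA libraries. The group means were 48.6% ± 3.3 (SD, n = 4) in DMSO, 54.3% ± 6.2 with PB, 55.1% ± 2.4 with RA and 63.7% ± 3.7 with both agents. Every RA and every PB+RA library was above every DMSO library, and every PB+RA library was above every RA library, while the PB libraries overlapped both DMSO and PB+RA. The exact two-sided permutation test over 4 against 4 libraries gave its smallest possible p, 0.0286, for RA against DMSO, PB+RA against DMSO and PB+RA against RA, and p = 0.171 for PB against DMSO. With Benjamini-Hochberg adjustment over the 30 tests of 6 measures in 5 comparisons, the exact permutation p = 0.0286 became 0.0952, so no difference passed 0.05 after adjustment. The sizes depended on what counted as a peak. With −log10 q of at least 3, the differences from DMSO, 5.76, 6.53 and 15.1 percentage points for PB, RA and PB+RA as counted above, were 4.53, 1.71 and 8.76, and for RA the exact permutation p was 0.4. With 0.5 of the region covered they were 2.10, 2.24 and 9.63, with exact permutation p of 0.743, 0.4 and 0.0857. A region entered the tables through peaks in at least 2 of 4 libraries of any 1 group, so these shares are not counted over regions chosen without the peaks. The permutation tests do not take that choice into account.

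The difference of mean occupancy from DMSO was of similar size in regions near genes with RA, but not with PB or PB+RA. The other regions carried a peak in 60.9% ± 6.5 (SD, n = 4) of cases in DMSO, 58.2% ± 2.4 with PB, 66.7% ± 2.1 with RA and 64.6% ± 5.5 with both agents. The share in deserts divided by the share elsewhere was 0.801, 0.796, 0.848 and 0.756 in the DMSO libraries, 0.995, 1.03, 0.887 and 0.824 with PB, 0.863, 0.841, 0.782 and 0.819 with RA, and 1.04, 1.02, 0.970 and 0.924 with PB+RA. The PB+RA ratios lay above all DMSO and all RA ratios (exact permutation p = 0.0286, adjusted p = 0.0952 for each). Those of RA overlapped DMSO, with a mean 0.026 above it (exact permutation p = 0.371). Both shares were counted over regions that entered through peaks in any 1 group. The permutation tests of the ratio do not take that choice into account. For PB the mean ratio was 0.134 above DMSO (exact permutation p = 0.0571, adjusted p = 0.132), and libraries numbered 1 and 2 gave a difference of 0.213 against 0.0538 for libraries 3 and 4. Nothing in the labels calls these number pairs a batch. The share of a library's peaks that lay in deserts was 17.5% ± 1.0 in DMSO, 19.4% ± 1.7 with PB, 17.2% ± 0.4 with RA and 20.3% ± 1.2 with both agents (SD, n = 4), so that by this measure the RA mean was below DMSO.

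The desert regions that carried a peak also had a lower mean GC content in each treatment group. Their median GC content was 42.2%, 43.4%, 41.3% and 43.4% in the DMSO libraries, 40.9%, 40.5%, 41.1% and 41.7% with PB, 40.8%, 41.4%, 41.6% and 41.4% with RA, and 40.1%, 39.7%, 40.5% and 40.1% with PB+RA. The PB+RA values lay below all DMSO and all RA values (exact permutation p = 0.0286, adjusted p = 0.0952). Bases under peaks in deserts, 21.5 Mb ± 2.9 in DMSO and 24.7 Mb ± 3.1 with PB+RA (SD, n = 4), and the median fold enrichment of desert peaks, 3.13 ± 0.14 and 3.30 ± 0.12, overlapped between groups.

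**Figure D1:**
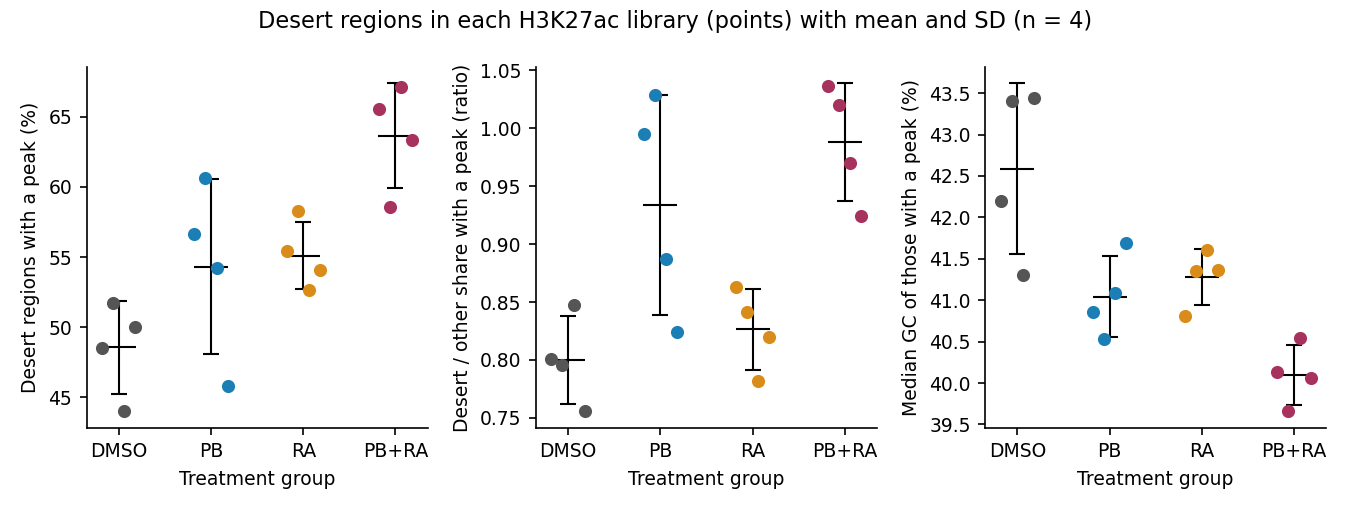
Each point is 1 H3K27ac ChIP library, grouped on the x axis by treatment, with the mean and SD of 4 libraries as black bars. The left panel plots the percentage of desert regions with a peak, the middle panel the ratio of that percentage to the one in other regions, and the right panel the median GC content (%) of desert regions with a peak. PB+RA libraries lie between 58.6% and 67.1% in the left panel, above all DMSO libraries.

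By concentration, the median difference of desert regions from DMSO was positive with each treatment and that of the other regions negative. The median concentration of desert regions was 4.78 log2 in DMSO, 5.02 with PB, 5.00 with RA and 5.22 with both agents, against 5.19, 5.11, 5.31 and 5.30 for the other regions. The median of the differences from DMSO was 0.25 with PB, 0.16 with RA and 0.35 with both agents in deserts, and -0.17, -0.04 and -0.09 elsewhere. With PB, 2622 desert regions (13.3%) were more than 1 log2 above DMSO, beside 7.27% of all regions, and 834 (4.22%) more than 1 below, beside 8.14%. With RA, 4498 (22.7%) were above, beside 14.6% of all regions, and 2060 (10.4%) below, beside 7.24%. With PB+RA, 5991 (30.3%) were above, beside 19.8% of all regions, and 2541 (12.8%) below, beside 16.1%. By concentration as deposited, RA is the treatment with which both directions were more frequent in deserts than over all regions.

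Peaks that appeared in all 4 libraries of a treatment and in no DMSO library, and the converse, were counted too. With PB, 294 desert regions (1.49%) were gained in this sense, beside 0.84% of all regions, and 79 (0.399%) were lost, beside 0.521%. The PB counts depend on single libraries, since 672 were gained without PB replicate 4 and 238 were lost without DMSO replicate 3. The lost count with PB was also 127 without DMSO replicate 1, 125 without DMSO replicate 4 and 127 without PB replicate 3. With RA, 934 (4.72%) were gained, beside 2.93% of all regions, and 332 (1.68%) lost, beside 0.905%, or 499 without DMSO replicate 3. With PB+RA, 1873 (9.47%) were gained, beside 5.66% of all regions, and 250 (1.26%) lost, beside 1.09%, or 537 without DMSO replicate 3 and 379 without PB+RA replicate 3. DMSO replicate 3 had the fewest peaks of all libraries, 64493. By peaks, gained regions with PB+RA had a larger share in deserts than over all regions, while the share of lost regions was near that over all regions. By concentration, the share of lower regions with PB+RA was smaller in deserts.

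The highest of the 4 group concentrations was that of PB+RA in 7000 desert regions (35.4%, against 29.2% of other regions) and that of DMSO in 4025 (20.3%, against 35.6%). DMSO was the lowest group in 7975 desert regions (40.3%, against 25.4%). Peaks in 2 or more PB+RA libraries and in no library of any other group marked 1156 desert regions (5.84%, against 3.42% of other regions). Concentrations with RA and with PB+RA were each more than 1 log2 above both DMSO and PB in 1626 desert regions (8.22%, against 3.91%), and PB+RA was more than 1 above each other group in 827 (4.18%, against 2.05%). At the other end, 3888 desert regions (19.7%, against 31.3%) had a peak in all 16 libraries.

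The median difference was larger, or level between the last classes with RA, in the farther classes of distance to a coding start site, where the GC content was lower. From 100 to 200 kb, 200 to 500 kb, 500 to 1000 kb and over 1000 kb, the median difference with PB+RA was 0.22, 0.38, 0.59 and 0.64 log2, over 8844, 7097, 2710 and 1131 regions, while the median GC content was 43.5%, 41.2%, 38.2% and 36.7%. With PB the medians were 0.11, 0.29, 0.42 and 0.48, and with RA 0.12, 0.17, 0.26 and 0.26. When each difference was taken relative to the median of all regions in the same of 10 GC classes, the PB+RA medians became -0.06, -0.09, -0.09 and -0.11, the RA medians -0.03, -0.09, -0.09 and -0.14, and the PB medians 0.01, 0.07, 0.06 and 0.12.

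**Figure D2:**
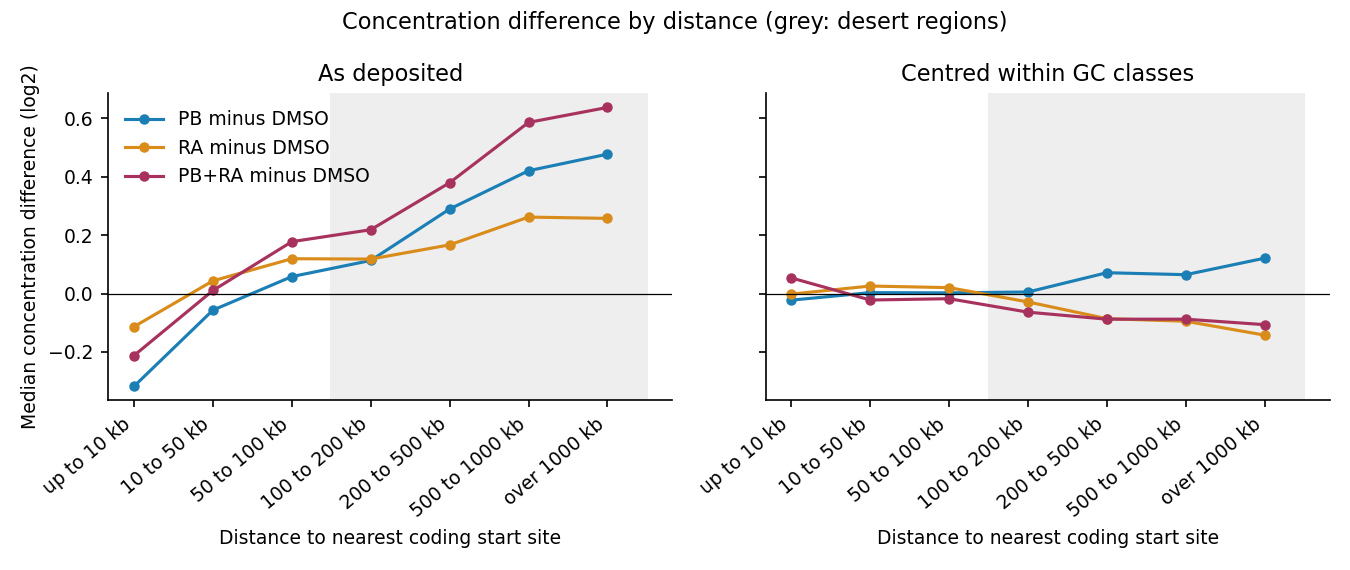
The x axis gives classes of distance to the nearest protein-coding start site, with the desert classes on grey, and the y axis the median concentration difference from DMSO (log2) for PB, RA and PB+RA. On the left, as deposited, the PB+RA line climbs from 0.22 to 0.64 across the desert classes, and on the right, relative to the GC class, it runs from -0.06 to -0.11.

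GC content moved with the concentration difference in deserts and elsewhere alike. In the class with the lowest GC (25.5% to 36.8%), the median difference with PB, RA and PB+RA was 0.60, 0.57 and 0.95 over 4429 desert regions and 0.52, 0.60 and 1.03 over 4781 other regions. In the class with the highest GC (from 59.3%), it was -0.83, -0.26 and -1.0 over 482 desert regions and -0.86, -0.16 and -0.87 over 8727 other regions. Desert medians lay above those of other regions in 8 of 10 classes with PB, 0 of 10 with RA and 1 of 10 with PB+RA. Relative to the GC class, the median difference of all desert regions was 0.05 with PB, -0.06 with RA and -0.08 with both agents. Counted that way, 1369 desert regions (6.92%) were more than 1 log2 higher with PB and 566 (2.86%) lower, beside 4.96% and 2.60% of all regions. With RA these were 3130 (15.8%) and 3002 (15.2%), beside 11.3% and 8.58%. With PB+RA they were 3398 (17.2%) and 3432 (17.3%), beside 13.6% and 11.8%. The part of GC content in the shift of desert regions, whether through the libraries or through the cells, was not tested.

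**Figure D3:**
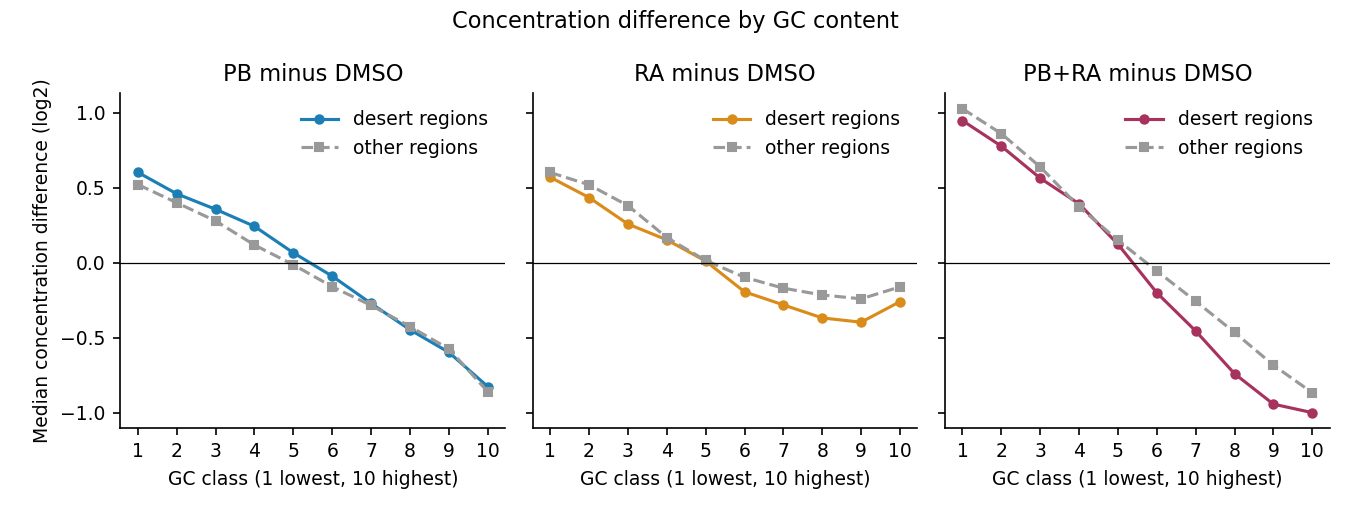
The x axis gives 10 classes of GC content with equal numbers of regions, from the lowest (1) to the highest (10), and the y axis the median concentration difference from DMSO (log2). Coloured lines are desert regions and dashed grey lines other regions, with 1 panel for each treatment. Both lines start high in class 1, where desert medians are 0.60, 0.57 and 0.95, and are below 0 in class 10, where those medians are -0.83, -0.26 and -1.0. The RA lines turn up between classes 9 and 10.

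Short sequence motifs differed between desert regions that were higher and lower in concentration. These sets also differ in GC content, and its part in the motif shares was not tested. Each motif was searched on both strands in the central 300 bases. The GATA letters AGATAA were in 25.9% of desert regions and 18.8% of all regions, in 32.0% of the desert regions more than 1 log2 higher with PB and in 10.2% of those lower. The homeodomain letters TAATTA were in 14.4% and 18.9% and 5.52% in the same sets, with 9.42% over all regions. The AP-1 letters TGANTCA were in 14.1% of desert regions, 11.6% of all regions and 17.9% of desert regions higher with PB+RA. Among E-boxes, CAGCTG was in 16.8% of desert regions, against 18.3% of all regions, and in 12.7% of those higher and 30.8% of those lower with PB, whereas CATCTG was in 22.3% and 23.7% of these sets. For CAGCTG the higher and lower sets had 12.8% and 21.3% with RA, and 13.1% and 24.4% with PB+RA. CATATG was in 7.79% of desert regions and 5.49% of all regions. The E2F motif was in 0.288% of desert regions, against 0.618% of all regions, and the CTCF core in 0.0354%, against 0.0543%. The DR5 element was in 0.511% of desert regions higher with RA (23 regions) and in 0.0971% of those lower.

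Desert regions were grouped by gap, the stretch between neighbouring protein-coding start sites. There were 1737 gaps, of which 363 held 1 desert region and 585 held at least 10, and these 585 held 15858 regions (80.2%). The median concentration difference of a gap was above 0 in 402 of the 585 gaps with PB, 327 with RA and 375 with both agents. It was above 1 in 10, 63 and 98 gaps and below -1 in 4, 23 and 33. Relative to the GC class, 2, 34 and 34 of the former and 0, 14 and 17 of the latter were still past 1.

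The 10 gaps with the most desert regions are described without a test, since a region entered the tables through peaks in any 1 group and the number in a gap is therefore not independent of its occupancy. The gap from LSAMP to IGSF11, both immunoglobulin-family adhesion genes of the nervous system, held 95 desert regions. A peak covered 33.7%, 31.6%, 34.7% and 30.5% of them in the DMSO libraries, 48.4%, 51.6%, 44.2% and 37.9% with PB, 63.2%, 65.3%, 55.8% and 62.1% with RA, and 82.1%, 80.0%, 78.9% and 81.1% with PB+RA. It was the only one of the 10 gaps in which all libraries of all 3 treatments lay above all DMSO libraries.

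The gap from ZPLD1 to ALCAM, an adhesion gene of growing axons, held 125 desert regions, of which 45.2% ± 4.5 had a peak in DMSO, 64.6% ± 14.4 with PB, 54.6% ± 5.0 with RA and 75.6% ± 2.4 with both agents (SD, n = 4). Only PB+RA was free of overlap with DMSO. The gap from TYW1 to AUTS2, a gene of neuronal development, also held 125, with 54.2% ± 8.5 in DMSO, 55.4% ± 3.2 with PB, 68.2% ± 3.1 with RA and 72.6% ± 6.2 with both agents, and was free of overlap with RA and PB+RA. The gap from TMTC2 to SLC6A15, a neutral amino acid transporter gene, was the one of the 10 whose mean was higher with RA than with PB+RA among those free of overlap, with 42.8% ± 5.6 in DMSO, 67.0% ± 5.3 with RA and 61.5% ± 1.7 with PB+RA.

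The gap from CADM1, an adhesion gene, to BUD13 had lower means with every treatment (68.5% ± 15 in DMSO, 59.9% ± 2.1, 67.5% ± 8.7 and 60.6% ± 8.2), with overlap in each case, and had the highest median GC content of the 10, 49.2%. In the gap from ZNF608 to GRAMD2B, 62.6% of 103 regions had a peak both in DMSO (± 6.2) and with PB+RA (± 2.3). All libraries lay above all DMSO libraries in 1 of the 10 gaps with PB, 5 with RA and 7 with both agents.

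**Figure D4:**
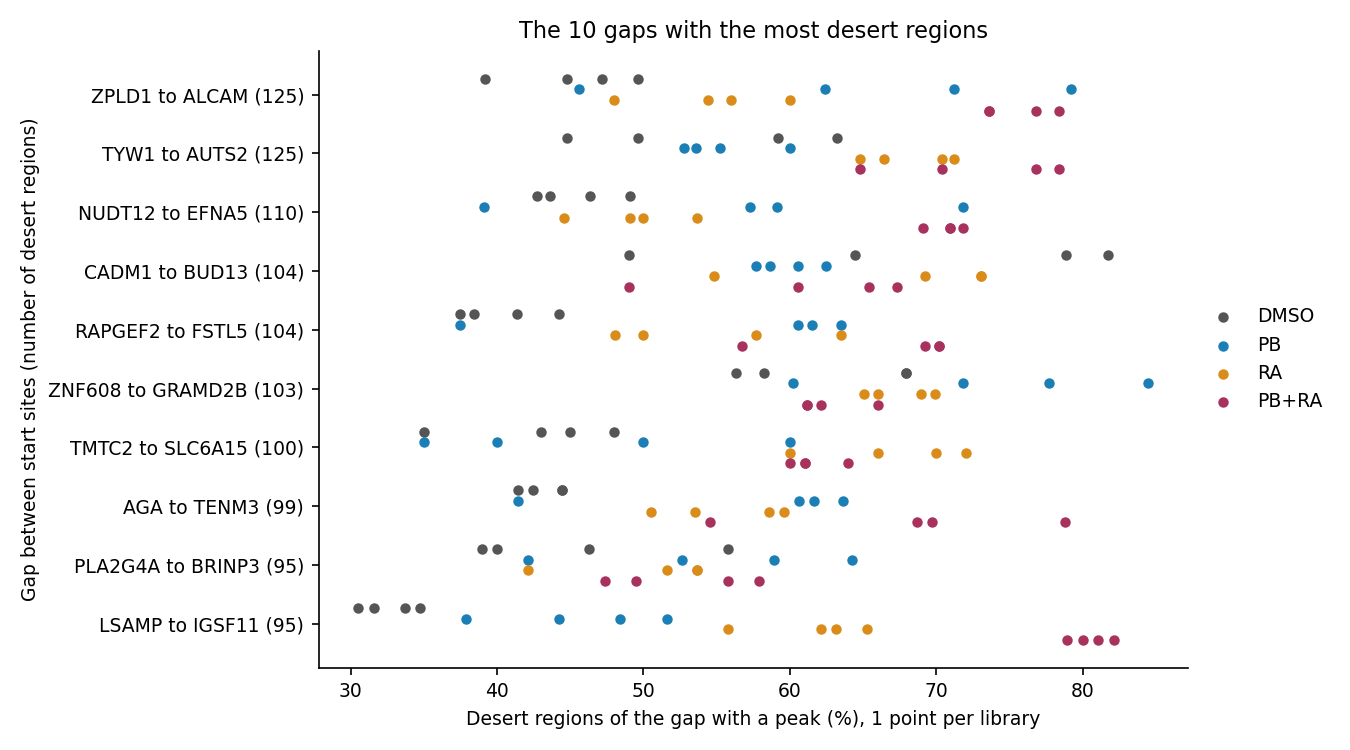
Each row on the y axis is 1 of the 10 gaps with the most desert regions (their number in brackets), and the x axis gives the percentage of these regions with a peak, with 1 point per library and a colour per treatment. In the bottom row, LSAMP to IGSF11, the DMSO points lie between 30.5% and 34.7% and the PB+RA points between 78.9% and 82.1%.

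Gaps with extreme medians were chosen by concentration and are described without a test. Among gaps with at least 10 desert regions, the highest median with PB+RA was in the gap from CYP26B1, which encodes an RA-degrading enzyme, to EXOC6B, at chr2:72374991-73053148. Its 11 desert regions all lay in EXOC6B, and their concentrations ran from 0.10 to 2.85 in DMSO, from 0 to 3.84 with PB, from 1.88 to 5.09 with RA and from 4.06 to 7.41 with PB+RA. The median difference was 1.47 with PB, 2.05 with RA and 4.44 with both agents, and 1.12, 1.56 and 3.45 relative to the GC class. No DMSO or PB library had a peak on any of the 11. Of the RA libraries, 1 had a peak on 9.1% of them and the others on none, whereas the PB+RA libraries had peaks on 81.8%, 54.5%, 100% and 100%.

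Among the same gaps the highest median with RA was inside RARB, the gene of RA receptor beta, where 17 desert regions lay between separate start sites of that gene at chr3:24870831-25469377. Here RA alone exceeded PB+RA. The median difference was 0.44 with PB, 2.74 with RA and 1.70 with both agents, and the RA libraries had a peak on 82.4%, 70.6%, 76.5% and 94.1% of the 17 regions, against 29.4%, 35.3%, 41.2% and 41.2% with PB+RA. DMSO libraries had a peak on 11.8% in 1 library and on none in the others, and PB libraries on 5.9%, 5.9%, 11.8% and 0%. All 17 were more than 1 log2 above DMSO with RA and 13 with PB+RA. The CYP26B1 and RARB gaps thus had opposite orders of RA and PB+RA.

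**Figure D5:**
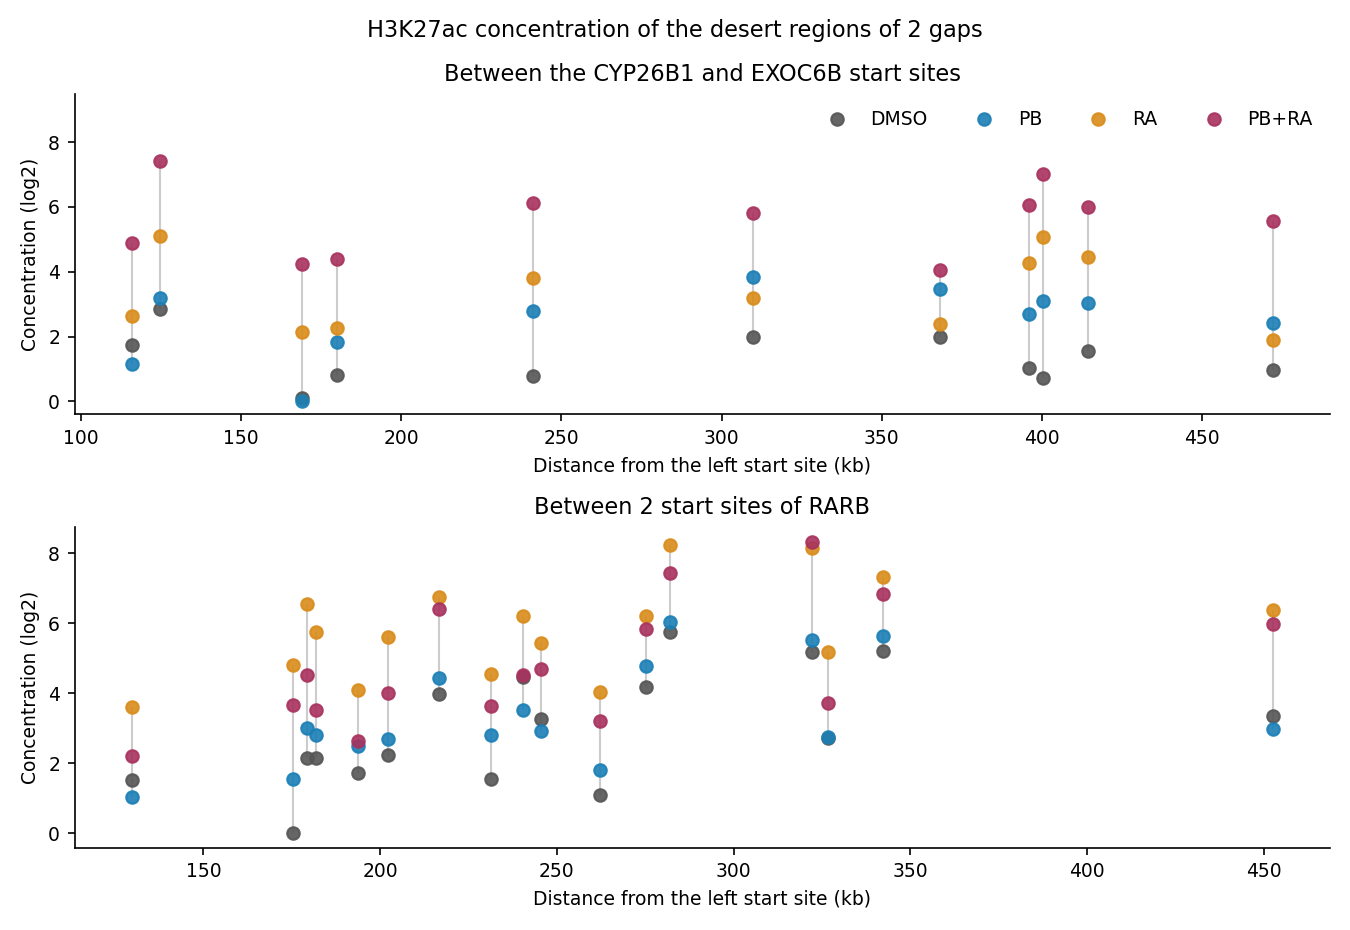
The x axis gives the distance of each desert region from the left start site of its gap (kb) and the y axis its group concentrations (log2), joined by a grey line. In the upper panel (CYP26B1 to EXOC6B, 11 regions) the PB+RA points are highest, from 4.06 to 7.41, and in the lower panel (RARB, 17 regions) the RA points are the highest in all but 1 region.

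Further gaps high with both RA and PB+RA were those from PAQR3 to NAA11 (12 regions, medians 2.61 and 3.17), from MTX2, which flanks the HOXD cluster, to HNRNPA3 (17 regions, 2.27 and 2.95), and from PTH2R to MAP2, the gene of a dendritic microtubule protein (17 regions, 1.98 and 3.08). The gap from KITLG, the ligand of the receptor KIT, to DUSP6, a phosphatase of ERK kinases, held 25 regions with medians of 2.54 with RA and 2.13 with PB+RA. Peaks covered none of these 25 in 3 DMSO libraries and 4.0% in the fourth, against 80.0%, 72.0%, 84.0% and 80.0% with RA. The gap from HDAC4, a class II histone deacetylase gene, to NDUFA10 held 16 regions with medians of 2.22 and 1.78, and its GC content of 53.3% was above the desert median.

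Again among gaps of at least 10 regions, the highest median with PB was in the gap from DPP10, a gene of a potassium channel partner, to DDX18, with 15 regions. It was 1.90 with PB, -0.03 with RA and 0.60 with both agents, and 1.60, -0.32 and -0.01 relative to the GC class. Peaks covered 86.7%, 93.3%, 93.3% and 80.0% of these regions with PB, against 26.7%, 46.7%, 33.3% and 40% in DMSO and 53.3%, 33.3%, 53.3% and 46.7% with PB+RA. Here the PB libraries stood apart from all other libraries, those of PB+RA included. The gap from TACR3, a tachykinin receptor gene, to CXXC4 had medians of 1.19 with PB and 1.84 with PB+RA over 10 regions, and the gap from PARP8 to ISL1, a LIM-homeodomain factor gene of the adrenergic circuit, had 1.17 with PB and 0.52 with PB+RA over 11. Relative to the GC class these were 0.63 and 0.91 for TACR3 to CXXC4, and 0.67 and -0.30 for PARP8 to ISL1.

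The lowest medians with RA and PB+RA among gaps of at least 10 regions were in the gap from IGSF21, a synaptic adhesion gene, to KLHDC7A, whose 18 regions lay within IGSF21. The median was -1.18 with PB, -1.93 with RA and -2.30 with both agents, and -0.74, -1.84 and -1.76 relative to the GC class. Peaks covered 83.3%, 94.4%, 50% and 61.1% of these regions in DMSO and at most 16.7% in any RA or PB+RA library. The gap downstream of PTPRU, a receptor phosphatase gene, held 44 regions with medians of -0.89, -1.37 and -1.73, and 47 regions within CAMTA1, a transcriptional activator gene, had -0.87, -1.06 and -1.56. The gap from GLI2, a Hedgehog pathway factor gene, to TFCP2L1 had -1.16, -1.26 and -1.93 over 11 regions. Relative to the GC class the medians were -0.44, -1.17 and -1.41 at PTPRU and -0.52, -0.88 and -1.14 at CAMTA1. At GLI2 they were -0.58, -1.03 and -1.25 by that measure. The treatments parted in the gap from BCR to IGLL1, where 17 regions had medians of -1.59 with PB, 0.88 with RA and -0.18 with both agents, and in the gaps from HNRNPA1L3 to TOX3 (0.40, -1.68 and -0.45 over 11 regions) and from INSC to SOX6 (0.37, -1.61 and -0.50 over 10 regions). Relative to the GC class the BCR gap had -0.73, 1.05 and 0.22. By the same measure the TOX3 gap had 0.21, -2.14 and -0.60, and the SOX6 gap 0.34, -1.64 and -0.55.

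Single desert regions with the largest differences among those with a peak in at least 3 libraries of the higher group are likewise descriptions. With PB the leading region was chr9:122912983-122915446 between BRINP1, a neural gene that restrains the cell cycle, and CDK5RAP2, a centrosome gene. Its fold enrichment was 7.21, 5.92, 5.78 and 4.97 in the PB libraries and 5.54, 4.46, 4.86 and 4.09 in the PB+RA libraries, with no peak in any DMSO or RA library. Its concentration was 3.78 in DMSO, 7.63 with PB, 4.51 with RA and 6.98 with both agents. Other regions led by PB lay between LRRC70 and HTR1A, a serotonin receptor gene (difference 3.11), and between AMY1C and PRMT6 (2.78).

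With RA and PB+RA, regions between ZEB2 and ACVR2A (differences 5.52 and 6.10), between SLC5A7 and SULT1C3 (5.42 and 5.78) and between OSTF1 and PCSK5 (4.72 and 5.33) had peaks in all 8 libraries with RA and in no DMSO or PB library. ZEB2 encodes a zinc-finger factor of neural development, and SLC5A7 the choline transporter of cholinergic neurons. A region between KCNJ3 and NR4A2, an orphan nuclear receptor gene of dopaminergic neurons, had a difference of 3.59 with RA and 5.62 with PB+RA, with fold enrichments of 6.66, 4.86, 5.02 and 3.88 in the PB+RA libraries and of 3.53, 3.17 and 2.92 in 3 RA libraries.

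The 6 regions with the largest downward differences with RA had differences between -0.57 and 0.17 with PB. The region between NRP1, a semaphorin co-receptor gene, and PARD3 had concentrations of 7.17 in DMSO, 7.15 with PB, 4.28 with RA and 4.71 with both agents, and a peak in all 8 libraries without RA and in none of the 8 with RA. A region in SPAG16 had 8.12, 8.14, 5.05 and 5.59 with the same pattern of peaks. The region between PCBD1 and UNC5B, a netrin receptor gene, had the largest RA difference downwards, -3.15. With PB the largest downward differences were at chr1:87597566-87597885 in a coding gene beside LMO4 (-2.86, GC content 67.7%) and between BCR and IGLL1 (-2.65). At the latter the fold enrichment was 5.65, 8.97, 6.35 and 7.0 in DMSO, 12.4, 11.3, 9.72 and 10.6 with RA, and no PB library had a peak. With PB+RA, a region downstream of PTPRU had a concentration of 3.69 in DMSO and 0, the lowest value of the tables, with PB+RA.

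The desert regions with the highest concentration were broad, and all 10 had a peak in all 16 libraries. The broadest and highest lay in SLIT3 at chr5:168172507-168287187, 114681 bases long, with concentrations of 13.61 in DMSO, 13.63 with PB, 13.24 with RA and 13.35 with both agents. Its fold enrichment was 8.46, 12.0, 10.8 and 8.29 in DMSO and 13.0, 12.1, 13.9 and 12.8 with PB+RA. These groups did not overlap, although the concentration with PB+RA was 0.26 below DMSO. The region in PLXNA4, a semaphorin receptor gene, followed with concentrations of 13.12, 13.30, 12.73 and 13.21.

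Among these 10, the region 189.6 kb from the SLC6A15 start, chr12:85029385-85077516, was the one with all libraries of all 3 treatments above DMSO. Its fold enrichment was 4.91, 5.72, 4.98 and 3.90 in DMSO, 8.68, 11.1, 7.81 and 5.83 with PB, 9.02, 9.05, 8.01 and 7.49 with RA, and 12.9, 10.8, 11.7 and 10.2 with PB+RA. Its concentration was 10.84 in DMSO and 13.37 with PB+RA, and its differences from DMSO were 1.36, 1.81 and 2.52. The 10 were ranked by the mean over the 4 groups, so a region could enter through the groups where it was high. Differences of these 10 regions are therefore given without a test. The region in DPP6, which encodes a potassium channel partner, had differences of 0.30, 1.34 and 1.64, and its RA and PB+RA libraries lay above DMSO. The region in GSE1 was lower in concentration with RA, by -1.35. Its mean fold enrichment was 9.11 ± 1.7 against 13.2 ± 3.3 in DMSO (SD, n = 4), with overlap between these groups. The region between HAND2, a core factor of adrenergic neuroblastoma, and FBXO8 had concentrations of 12.10, 12.23, 12.06 and 12.44. This region lay 472.8 kb from the HAND2 start and 219.5 kb from that of FBXO8 and, like all 10, had a peak in all 16 libraries.

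Desert regions were joined into clusters along the chromosome. Clusters of other regions were not counted, so the counts below do not set deserts apart from them. Joining regions that lay within the study's stitching distance for clusters gave 2090 clusters of at least 3 members, with 11412 members (57.7%), a largest cluster of 39 and a median span of 24.8 kb. The summed linear concentration of a cluster was more than 1 log2 above DMSO in 162 clusters with PB, 394 with RA and 545 with both agents, and more than 1 below in 17, 180 and 143. The cluster with the highest sum lay in SLIT3, with 29 members over 270.9 kb and differences of 0.04, -0.34 and -0.27. The next, in DPP6, held 17 members and had differences of 0.14, 1.03 and 1.29, and the cluster between TLE3, a corepressor gene, and UACA held 35 and had 0.26, 0.89 and 0.83. The cluster between IER5L and NTMT1 had -0.67 with PB and -0.58 with PB+RA.

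Desert regions next to genes of chosen lists were counted and set beside all desert regions (median differences of 0.25, 0.16 and 0.35 with PB, RA and PB+RA, and 0.05, -0.06 and -0.08 relative to the GC class). Of 25 genes of the RA response, 10 flanked 70 desert regions, with medians of 0.04, 1.04 and 0.91, or -0.07, 0.92 and 0.53 relative to the GC class. Of the 70, 35 (50%) were more than 1 log2 higher with RA, beside 22.7% of all desert regions and 14.6% of all regions. These 35 included 17 at RARB and 8 at CYP26B1, and all 4 regions at CYP26A1, another RA-degrading enzyme gene (medians 1.96 with RA and 2.48 with PB+RA). The 6 regions at RXRA, the partner receptor gene, had -0.36 and -1.20, with a GC content of 57.6%. The list thus rests mostly on the same gaps described above.

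Genes of the adrenergic core circuit flanked 420 desert regions, with medians of 0.14, 0.02 and 0.11, or -0.11, -0.26 and -0.45 relative to the GC class. With RA, 83 (19.8%) were more than 1 log2 higher and 54 (12.9%) lower, beside 22.7% and 10.4% of all desert regions. Of 61 regions at GATA3, 29 were lower with RA and 1 higher (median -0.88, and 0.05 with PB), while 32 of 42 regions at SOX11 were higher and none lower (median 1.38). The 39 regions at HAND2 had medians of 0.10, -0.13 and 0.00 in the order of PB, RA and PB+RA, and the 74 at ISL1 had 0.45, 0.34 and 0.51. These factors act together in the same circuit, and their deserts did not share 1 direction.

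Neural developmental transcription factor genes flanked 932 desert regions, with medians of 0.18, 0.22 and 0.41, or -0.02, 0.01 and 0.03 relative to the GC class. The highest among those with at least 20 regions was NFIA, a factor of neural and glial differentiation, with 0.93, 1.72 and 2.56 over 26 regions, of which 24 were higher with PB+RA. MEIS1, a homeodomain factor, had 1.26 with RA and 1.48 with PB+RA over 41 regions, NR2F1, an orphan receptor induced by RA, 1.30 and 1.13 over 45, and EBF1 0.60 and 1.08 over 78. SOX4 had 47 of 113 regions higher with RA and none lower. TCF4, an E-protein gene, had -0.83 with RA and -0.58 with PB+RA over 27 regions, and MYT1L, a neuronal zinc-finger factor, -0.37 and -0.51 over 96.

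Genes of cell adhesion and axon guidance flanked the most desert regions, 3044, for 77 of 84 genes, with medians of 0.38, 0.15 and 0.36, or 0.05, -0.21 and -0.24 relative to the GC class. With PB, 510 (16.8%) were higher and 75 (2.46%) lower, beside 13.3% and 4.22% of all desert regions. EPHA7 and EPHA6, ephrin receptor genes, had medians of 1.57 and 1.10 with PB+RA over 44 and 80 regions, and CNTNAP5 had 1.39 over 43. PCDH10, a protocadherin gene, had 0.83 with PB and 0.07 with RA over 69 regions, and CDH6, a cadherin gene, 0.63 and -0.31 over 85. CDH11, a mesenchymal cadherin gene, had -0.55 with RA and -0.97 with PB+RA over 73.

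Channels and neurotransmitter receptors flanked 625 desert regions, with medians of 0.47, 0.22 and 0.55, or 0.11, -0.09 and -0.09 relative to the GC class. GRM7, a metabotropic glutamate receptor gene, had 1.61 with PB+RA over 40 regions and KCNH8, a potassium channel gene, 1.72 over 23, while GRID1, a glutamate receptor-like gene, had -1.07 with RA and -1.11 with PB+RA over 55. Mesenchymal genes flanked 258 regions, with medians of -0.01, 0.45 and 0.31, or -0.31, 0.03 and -0.31 relative to the GC class. TWIST1 had 0.68 with RA over 36 regions, DKK1, a Wnt antagonist, 1.10 over 27, and MAML2, a Notch coactivator, 1.04 over 28. The median with RA was -0.06 over the 69 regions at TGFBR2, a TGF-beta receptor gene, -0.19 over 19 at FN1, the fibronectin gene, and -0.39 over 18 at MEOX2, a homeobox gene. Genes of immune and endothelial cells, which the culture should not hold, flanked 112 regions through 3 genes, with medians of 0.39, 0.07 and 0.04, or 0.16, -0.12 and -0.44 relative to the GC class. Of these, 56 were at CDH5, which shares its gap with CDH11, so a flanking gene is a position and not a known target.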

How the data were processed

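H3K27ac ChIP-seq regions and peaks of SK-N-BE(2)C cells were analysed from the 4 ChIP libraries of each of DMSO, PB, RA and PB+RA. The authors trimmed reads, aligned them to hg19 and called broad peaks per library against input, and the submitters' notes name fastp 0.12.4, Bowtie2 2.4.4, MACS2 2.2.7.1 and DiffBind 3.4. Peak files deposited by the authors give the fold enrichment over input (a ratio) and the −log10 q of each peak. Region tables deposited by the authors give 1 mean concentration per group on the log2 scale over a consensus of peaks found in at least 2 of 4 libraries of a condition. Their columns of fold changes, p-values and FDR compare the groups and were not used. No read counts were in the files used, so depth is unknown and the number of libraries limits the precision.

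Desert regions were found with GENCODE 44 lifted to GRCh37, leaving out 17 regions off chromosomes 1 to 22 and X. A region carried a peak when a peak covered at least 1 base of it. Measures per library were compared with a two-sided exact permutation test over 4 against 4 libraries, which cannot go below p = 0.0286. Benjamini-Hochberg adjustment was over the 30 tests of 6 measures in 5 comparisons. Concentration differences were called past 1 log2 and centred within 10 GC classes as an alternative. Named regions were the 10 gaps with the most members, the 10 densest clusters by summed concentration, the 10 highest regions, the 6 regions and, among gaps of at least 10 members, the 5 gaps with the largest and smallest difference per treatment, and the regions at the border of the distance rule. Of these, 1 gap and 1 region are not reported here. Gene lists and motifs were chosen by hand, and named genes within a list were picked after their values were seen. The members and lists were chosen with earlier results of these data known. Alternatives left out each replicate number, used a replicate block, peaks with −log10 q of at least 3, a minimum of 200000 bases, other start sites, other overlaps, other centrings and only regions outside coding genes, and the single-library and number-pair settings were added after seeing the data. Scripts used Python 3.11.15, pandas 2.3.3, scipy 1.17.1 and pysam 0.24.0 and were tested on simulated data.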

Additional observations from a re-analysis of the deposited data

Results flagged for a closer look

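Of 104 groups of 4 libraries examined, 4 had 1 library far from the other 3 by Dixon's criterion, where chance gives about 5%. In the gap from RAPGEF2 to FSTL5, PB replicate 4 had a peak on 37.5% of desert regions while the other PB libraries had one on 60.6% to 63.5%, and PB+RA replicate 2 was at 56.7% while the others were at 69.2% to 70.2%. In the gap from AGA to TENM3, PB replicate 4 was at 41.4% and the others at 60.6% to 63.6%. PB replicate 4 also had the lowest share over all desert regions among the PB libraries, 45.8%. For the region between PODXL and PLXNA4, DMSO replicate 2 had a fold enrichment of 14.0 and the others 7.85 to 8.18.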

How the results depend on the processing

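The measures per library kept their direction and stayed above 0.05 after adjustment in 191 of 195 values under the alternatives fixed at the start that kept all libraries, with a lowest adjusted p of 0.0659. Values under the replicate block are among the 195, and their outcome was set in advance. Their differences equal the main ones by construction, and their exact permutation p cannot go below 0.125. The 4 exceptions concerned small differences. The share of peaks in deserts with RA was 0.67 percentage points above DMSO with −log10 q of at least 3 and 0.074 above it with start sites of all gene types, and the median fold enrichment with PB+RA was 0.069 and 0.0022 above that with PB under the same settings. The cause was not tested. With 3 against 3 libraries the exact test cannot go below 0.1, so p-values there say nothing about stability. Leaving out each replicate number in turn, 5 of 120 differences changed sign. The share of peaks in deserts with RA against DMSO ran from -0.69 to 0.37, bases under desert peaks with PB against DMSO from -0.83 to 2.82 Mb, and median fold enrichment with RA against DMSO from -0.013 to 0.11. The ratio of desert to other occupancy differed from DMSO by 0.213 with PB in libraries numbered 1 and 2 and by 0.0538 in libraries 3 and 4, and by -0.00092 with RA in libraries 3 and 4. These number pairs were looked at after seeing the data.

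Region by region, the deviations of same-numbered libraries were at most weakly correlated. A correlation over regions cannot see a shift of a whole library. The ratio of desert to other occupancy was higher in libraries 1 and 2 than in 3 and 4 in each treatment group, but not in DMSO. Over 24 pairs of equal number the correlation of their deviations from the group means ran from -0.034 to 0.12, with 1 over 0.1. In 9 of these 24 the library correlated best with its own number among the 4 libraries of the other group. The replicate block left every difference as it was, for example 15.1 percentage points for the share of desert regions with a peak with PB+RA against DMSO (exact permutation p = 0.125, the smallest that 4 pairs allow), and 5.76 with PB (exact permutation p = 0.25).

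Counts moved with the definition. Apart from the GC classes, shares over all regions were not counted under these settings or those for gained and lost regions below. The counts therefore do not compare deserts with other regions. The number of desert regions was 31526 beyond 50000 bases, 10938 beyond 200000 bases and 2703 with start sites of all gene types. Higher and lower regions by concentration past 0.5 were 6955 and 2945 with PB and 7444 and 4948 with RA, and 4851 were lower with PB+RA. Centred within GC classes, 1369 were higher with PB and 3398 with PB+RA. With a peak in at least 3 libraries of the higher group, 1363 were higher and 390 lower with PB, 2661 higher with RA and 1555 lower with PB+RA, and without the lowest quartile of concentration 354 were lower with PB and 1539 with PB+RA. Beyond 200000 bases, higher and lower regions were 1707 and 318 with PB, 2633 and 1181 with RA, and 3606 and 1218 with PB+RA. With start sites of all gene types they were 537 and 51, 700 and 259, and 984 and 233. Fewer regions entered under these last definitions.

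Gained and lost regions with peaks of −log10 q of at least 3 were 68 and 21 with PB, 295 and 195 with RA, and 716 and 130 with PB+RA. Beyond 200000 bases they were 175 and 36, 560 and 199, and 1159 and 125, and 166 were lost with PB+RA outside coding genes. With 0.5 of the region covered, 143 were gained with PB, and 1154 were gained and 377 lost with PB+RA. Leaving out libraries, by number or singly, gave 328 to 833 gained and 100 to 337 lost with PB, 389 to 621 lost with RA and 274 to 746 lost with PB+RA, since fewer libraries have to agree. Among the 10 gaps with the most members, all PB libraries lay above DMSO in 1 to 6. Among the 10 highest regions they did so in 1 to 2 with PB and in 4 to 7 with PB+RA.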
